A study of Mus musculus with 12 samples.

Results

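The genes described here are 35 genes of sterol and fatty acid synthesis, chosen by name as the set controlled by the sterol regulatory element-binding proteins (SREBPs). They were read in C2C12 myotubes, which are fused, contracting cells grown from a mouse skeletal muscle myoblast line. The 35 genes were found by matching symbols to the Ensembl identifiers of the deposited count table, which lists 55487 genes, and each symbol matched 1 identifier. They divide into a sterol arm of 24 genes (18 enzymes of cholesterol synthesis and 6 regulators or carriers) and a fatty acid arm of 11 genes. The choice rests on gene function and uses no threshold on a measured value. It was, however, made with earlier results of these data known.

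C2C12 cells were differentiated for 5 days in DMEM with 2% horse serum and penicillin and streptomycin. The medium was then replaced for 24 hours, again in DMEM with the same antibiotics. The control group (6 libraries, replicates 1 to 6) received 4% horse serum, and the STEM group (6 libraries, replicates 7 to 12) received 4% STEM. STEM is a cell-free aqueous product of factors secreted by partially differentiated human embryonic stem cells. The control medium held horse serum and the STEM medium did not, so the addition of STEM and the removal of serum cannot be told apart. All libraries come from 1 cell line. RNA was collected per culture well, and no source used here says whether wells were grown on separate days, so p-values measure only the spread between these libraries, which may be technical. The comparison asks which genes of these pathways differed in mRNA level between STEM-treated and control myotubes.

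Cholesterol and fatty acids are both built from cytosolic acetyl-CoA. In the sterol route, acetyl-CoA units are joined to HMG-CoA, passed through mevalonate to farnesyl diphosphate, joined to squalene, closed into the ring of lanosterol and trimmed to cholesterol. SREBPs are transcription factors made as membrane proteins of the endoplasmic reticulum. When membrane sterol is low, the escort protein SCAP carries them to the Golgi for cleavage, and when sterol is high, INSIG proteins hold SCAP back. SREBP-2 acts mainly on sterol genes and SREBP-1 mainly on fatty acid genes. Cultured muscle cells use both routes to supply membranes.

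The upstream sequences of 6 members are shown because they represent members with large falls (Acat2, Hmgcs1, Lss, Insig1), the member that moved most in the other direction (Srebf1) and a textbook SREBP-1 target with little difference (Fasn). Each is read 5′ to 3′ on the gene's own strand in RefSeq's mouse assembly GRCm38.p6 and ends before the first annotated exon. The regions are chr17:12960748-12960975 (minus strand, Acat2), chr13:119690101-119690350 (plus strand, Hmgcs1), chr10:76531355-76531587 (plus strand, Lss), chr5:28071162-28071362 (plus strand, Insig1), chr11:60222582-60222831 (minus strand, Srebf1) and chr11:120824548-120824797 (minus strand, Fasn). Capitals mark matches, on either strand, to 4 short motifs: the SRE core TCACNCCAC, the NF-Y box CCAAT, the GC box GGGCGG bound by Sp1, and the E-box CACGTG, a palindrome.
Acat2 upstream: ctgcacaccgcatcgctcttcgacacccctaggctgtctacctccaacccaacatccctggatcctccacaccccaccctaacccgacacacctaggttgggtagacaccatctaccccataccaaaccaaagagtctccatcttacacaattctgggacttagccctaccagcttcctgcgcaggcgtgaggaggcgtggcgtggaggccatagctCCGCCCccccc
Hmgcs1 upstream: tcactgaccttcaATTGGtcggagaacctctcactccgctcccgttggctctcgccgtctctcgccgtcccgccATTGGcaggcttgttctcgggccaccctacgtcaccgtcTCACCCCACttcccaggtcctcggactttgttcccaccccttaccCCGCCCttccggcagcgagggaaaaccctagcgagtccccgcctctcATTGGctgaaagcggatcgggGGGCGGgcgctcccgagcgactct
Lss upstream: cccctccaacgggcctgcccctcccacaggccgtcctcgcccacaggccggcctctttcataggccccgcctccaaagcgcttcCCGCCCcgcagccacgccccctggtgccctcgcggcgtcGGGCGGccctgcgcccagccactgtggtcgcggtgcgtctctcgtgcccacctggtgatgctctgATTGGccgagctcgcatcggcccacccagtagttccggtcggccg
Insig1 upstream: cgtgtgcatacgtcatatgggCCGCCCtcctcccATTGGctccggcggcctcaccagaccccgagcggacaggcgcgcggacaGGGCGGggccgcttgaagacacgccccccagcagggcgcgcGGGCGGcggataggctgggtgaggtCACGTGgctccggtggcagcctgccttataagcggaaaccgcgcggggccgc
Srebf1 upstream: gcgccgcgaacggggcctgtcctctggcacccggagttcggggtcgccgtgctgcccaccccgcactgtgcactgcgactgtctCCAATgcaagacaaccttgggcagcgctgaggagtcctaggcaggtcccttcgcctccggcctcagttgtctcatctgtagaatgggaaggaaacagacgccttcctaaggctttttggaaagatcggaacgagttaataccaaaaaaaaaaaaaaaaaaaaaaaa
Fasn upstream: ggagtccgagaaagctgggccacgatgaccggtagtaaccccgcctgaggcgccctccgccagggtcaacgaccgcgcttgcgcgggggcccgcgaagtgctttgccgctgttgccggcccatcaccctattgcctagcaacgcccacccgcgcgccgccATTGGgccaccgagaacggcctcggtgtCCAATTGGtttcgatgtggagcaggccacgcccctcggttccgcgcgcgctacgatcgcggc

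The Hmgcs1 stretch held all but the E-box of these motifs, with 3 NF-Y boxes, 2 GC boxes and 1 SRE core. The Insig1 stretch held 3 GC boxes, 1 NF-Y box and 1 E-box, whereas the Acat2 stretch held a GC box alone. The Srebf1 stretch held 1 NF-Y box, and the Fasn stretch held 3 NF-Y boxes, of which a pair overlap on opposite strands. In RefSeq's windows around the gene start, which could be had for 28 of the 35 members, an NF-Y box was present for 23 members (82.1%) against 41.1% of 27025 genes. The GC box was present for 23 members against 38.2% of all genes, the E-box for 6 members (21.4%) against 8.09%, and the SRE core for 1 member, Hmgcs1 (3.57%), against 1.44%. The 27025 genes were not restricted to genes expressed in these cells, and a gene counted if any of its windows matched. NF-Y boxes were present for 17 of the 20 members with a window that were lower with STEM and for 6 of the other 8, so most members held these letters whether or not they were lower. A match is a description of the letters and does not show that a factor bound there.

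Total counts ranged from 13285472 to 18254882 (median 15533472) in the control libraries and from 14909485 to 24536264 (median 15740424) in the STEM libraries. Control library 6 stood apart from the other control libraries. On the first principal component of all genes (44.2% of the variance) control libraries 1 to 5 lay between -35.5 and -24.6, control library 6 at 11.2 and the STEM libraries between 15.5 and 28.6. The summed level of 15 myotube markers was 13521 CPM (read counts scaled to a common library size) in control library 6, which was the lowest of the controls for 15 of the 15 markers, against 24711 to 26893 CPM in control libraries 1 to 5 and 20598 to 26576 CPM with STEM. Among these markers Ttn, the giant spring protein of the sarcomere, had the highest mean CPM, which is not corrected for its great length, and Actn2 the lowest, and all 15 were expressed. Of the myotube markers 3 passed the test (2 lower and 1 higher with STEM). The share called lower was 13.3%, against 17.4% of all genes. Without control library 6, 11 of these markers passed (10 lower and 1 higher). The share called lower was then 66.7%, against 24.5% of all genes in that fit. The summed level of 7 markers of cycling myoblasts was 610.3 to 897 CPM in control libraries 1 to 5, 975 CPM in control library 6 and 477 to 562 CPM with STEM. Of these 7 markers 4 (57.1%) were lower with STEM by the test described next, against 17.4% of all genes. Markers of adipocytes were at or near 0, with no gene of 8 high enough to be tested, 4 at 0 in every library and a summed level of at most 0.337 CPM. Hepatocyte markers likewise had no testable gene of 5, and of 5 macrophage markers Cd68 alone was testable (log2 fold change 0.12, adjusted p = 0.61) while Adgre1 was at 0 in every library. Without control library 6 a further macrophage marker, Csf1r, was testable and passed as higher with STEM at a low level, 0.137 to 0.544 CPM in control libraries 1 to 5 and 0.404 to 1.23 CPM with STEM (1.45, adjusted p = 0.00234), and it is named here after its values were seen. In bulk RNA, fewer cells of a type and less RNA per cell cannot be told apart, and the part that the share of dividing cells or control library 6 has in the results was not tested beyond the values given with and without that library.

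All 35 members were expressed well above the filter on low counts, with between 212 and 40958 counts in any library. A gene was called when the Benjamini-Hochberg adjusted p-value of edgeR's quasi-likelihood test was at most 0.05 over the 14175 genes tested. Log2 fold changes are STEM minus control, so negative values are lower with STEM, and levels are CPM after TMM scaling. Of all genes tested 36.4% were called, 17.4% lower and 18.9% higher with STEM, with a median log2 fold change of 0.01. For 17.2% of genes there was no overlap between control and STEM libraries, with every STEM library lower in 8.52% and higher in 8.68%. Against this background, 20 of the 24 genes of the sterol arm were called, 18 lower and 2 higher (median log2 fold change -0.41), and 7 of the 11 genes of the fatty acid arm were called, all 7 lower (median -0.31). Without control library 6, where 50.8% of all genes were called (24.5% lower and 26.3% higher), the sterol arm had 21 called (19 lower and 2 higher, median -0.38) and the fatty acid arm 8 (7 lower and 1 higher, median -0.29). Control and STEM libraries were fully separate for 18 genes of the sterol arm, 16 of them lower, and for 6 genes of the fatty acid arm. DESeq2, which called 29.3% of the genes it tested, called the same 20 and 7 members, and limma-voom, which called 35.1%, called 19 and 7, without Insig2.

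**Figure D1:**
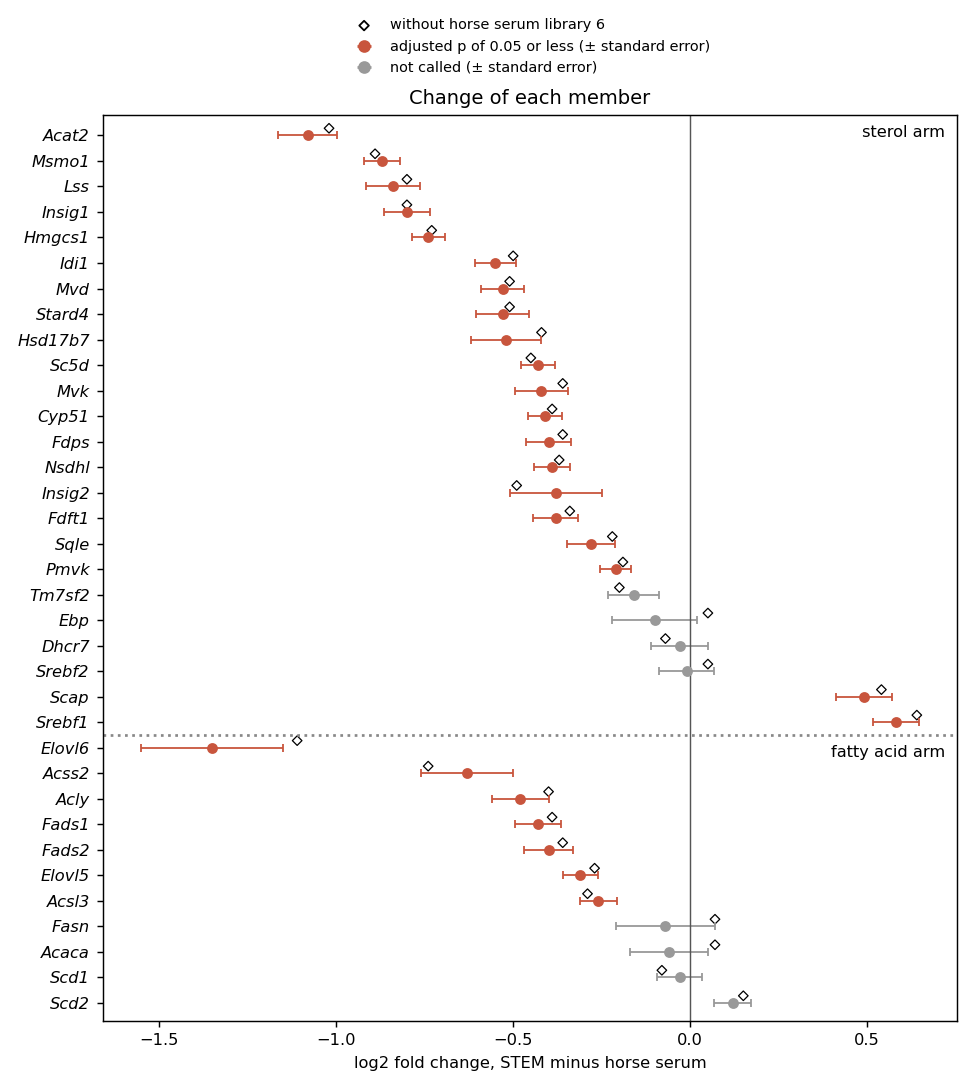
Log2 fold change of each of the 35 members, STEM minus control (points with standard errors, coloured where called), ordered within the sterol and fatty acid arms, with open diamonds for the value without control library 6. Elovl6 (-1.35) and Acat2 (-1.08) lie furthest to the lower side, and Srebf1 (0.58) and Scap (0.49) are the called members on the higher side.

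The 7 enzymes from acetoacetyl-CoA to farnesyl diphosphate all fell with STEM. Their median log2 fold change was -0.53, with no overlap between the groups for any of them. Acat2, the cytosolic thiolase that joins acetyl-CoA units, showed the largest fall of the sterol arm. Its gene lies at chr17:12942890-12960747 on the minus strand (GRCm38). Acat2 levels were 102 to 139 CPM (median 109) in the control libraries and 49.1 to 60.5 CPM (median 53.3) with STEM. Every STEM library lay far below the lowest control, and the means of 115 ± 15.4 and 54.6 ± 4.77 CPM (SD, n = 6 each) differed 2.12-fold (log2 fold change -1.08, SE 0.083, adjusted p = 4.01e-07). Reads of the near copy Acat3 were few, 282 over all libraries against 16462 for Acat2.

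Hmgcs1, the synthase that makes HMG-CoA and one of the most abundant members, lies at chr13:119690379-119708260 on the plus strand. Hmgcs1 ranged from 568 to 633 CPM (median 608) in controls and from 344 to 384 CPM (median 352) with STEM. The spread within each group was small beside the gap of 1.67-fold between the means of 603 ± 27.2 and 361 ± 17.5 CPM (SD, n = 6; log2 fold change -0.74, SE 0.047, adjusted p = 7.47e-08).

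The mevalonate steps followed the same direction with smaller folds. Mvk, mevalonate kinase, was 34.8 to 46.6 CPM (median 36.9) in controls and 26.6 to 31.2 CPM (median 28.6) with STEM (log2 fold change -0.42, adjusted p = 0.000463). Pmvk, the next kinase, was 55.2 to 62.5 CPM in controls and 49.1 to 53.1 CPM with STEM, the smallest fall of this group (-0.21, adjusted p = 0.0021). Mvd, the decarboxylase that yields isopentenyl diphosphate, was 59.9 to 69.5 CPM (median 65.4) in controls and 40.1 to 50.1 CPM (median 45.5) with STEM (-0.53, adjusted p = 1.47e-05). Each of these groups was separate, although for Mvk and Pmvk the highest STEM library came close to the lowest control.

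Idi1, the isomerase that readies the isoprene unit for chain growth, was 62.4 to 74.3 CPM (median 63.7) in controls and 41.5 to 49.2 CPM (median 43.6) with STEM (log2 fold change -0.55, SE 0.057, adjusted p = 6.13e-06). Fdps, farnesyl diphosphate synthase, was 174 to 214 CPM (median 179.5) in controls and 126 to 154 CPM (median 144) with STEM (-0.40, SE 0.063, adjusted p = 0.00019). For both genes the highest control was library 6, and the other controls still lay above every STEM library. Fdps shares 1124 bp (26.7%) of its exons with Gm43738 on the same strand, which limits how far its counts can be assigned.

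**Figure D2:**
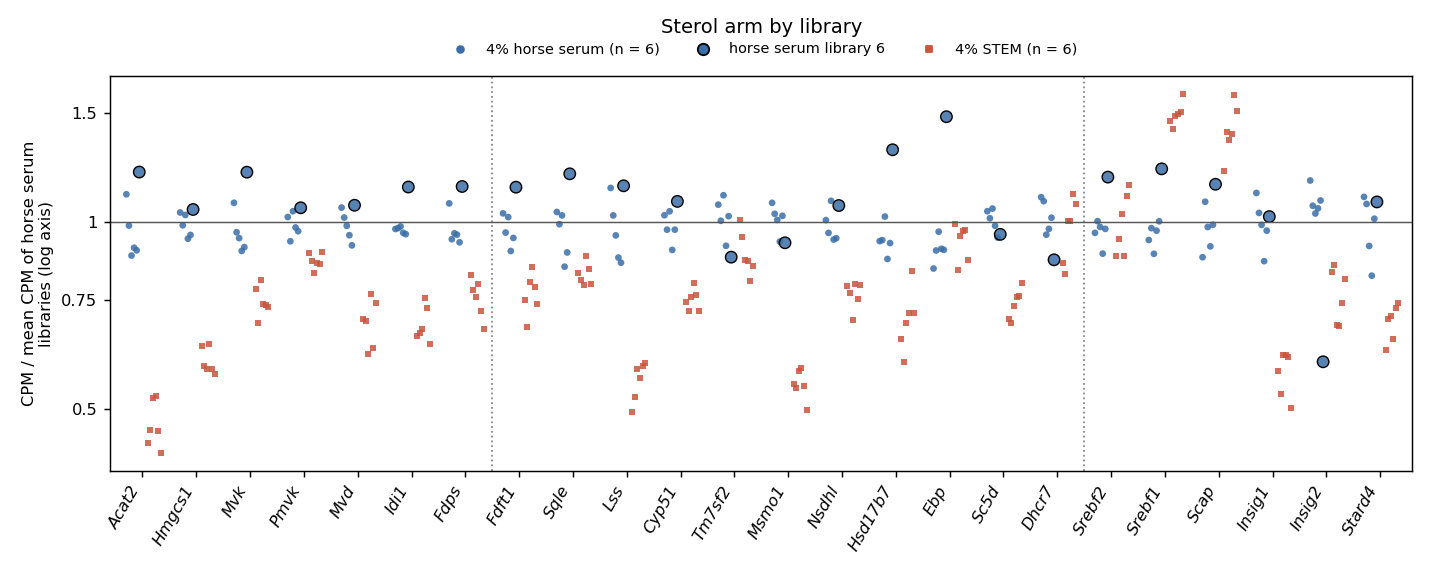
Level of each of the 24 sterol arm genes in each of the 12 libraries, as CPM divided by the gene's mean CPM in the controls (log axis), with circles for controls, squares for STEM and control library 6 outlined. For Acat2, Hmgcs1, Lss, Msmo1 and Insig1 the STEM points form a group well below the control points, and for Srebf1 and Scap above them.

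Of the 11 enzymes that lead from farnesyl diphosphate through squalene and lanosterol to cholesterol, 8 fell and 3 did not pass the test (Tm7sf2, Ebp and Dhcr7), with a median log2 fold change of -0.39. Without control library 6 it was 9, Tm7sf2 being added. With all 12 libraries the fitted log2 fold change was negative for all 18 sterol enzymes, including those not called. Without control library 6 it was negative for 17, and Ebp was at 0.05.

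Fdft1, squalene synthase, commits farnesyl diphosphate to sterols. It was 189.6 to 240.2 CPM in controls and 143 to 179 CPM with STEM (log2 fold change -0.38, SE 0.063, adjusted p = 0.000285). The groups did not overlap, but 774 bp (18.3%) of its exons overlap Ctsb on the other strand, and the strand setting of the counting is not given in the sources used here, so reads of the pair may be mixed. Sqle, squalene epoxidase, was 129 to 182 CPM (median 153) in controls and 120.5 to 134 CPM (median 124) with STEM. Its groups overlapped, with 5 of the 6 STEM libraries below every control (log2 fold change -0.28, SE 0.069, adjusted p = 0.00554).

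Lss, lanosterol synthase, closes the sterol ring and lies at chr10:76531588-76557138 on the plus strand. Lss was 94.0 to 125 CPM (median 108) in controls and 54.0 to 64.9 CPM (median 62.3) with STEM. The means of 109 ± 13.4 and 60.8 ± 4.34 CPM (SD, n = 6) differed 1.79-fold with no overlap (log2 fold change -0.84, SE 0.076, adjusted p = 1.47e-06). Cyp51, which removes a methyl group from lanosterol, was 325 to 389 CPM in controls and 259 to 287 CPM with STEM (-0.41, SE 0.049, adjusted p = 1.9e-05).

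Msmo1, the methylsterol oxidase, gave the lowest adjusted p-value of the 35 members. Its gene lies at chr8:64718139-64733792 on the minus strand. Msmo1 was 238 to 276 CPM (median 261) in controls and 128 to 149.5 CPM (median 140.4) with STEM. The means of 257 ± 15 and 141 ± 7.78 CPM (SD, n = 6) differed 1.82-fold (log2 fold change -0.87, SE 0.051, adjusted p = 3.25e-08). Its partners in removing the same methyl groups fell less. Nsdhl, the decarboxylating dehydrogenase, was 100.5 to 116 CPM in controls and 74.5 to 85.3 CPM with STEM (-0.39, SE 0.05, adjusted p = 3.67e-05). Hsd17b7, the ketone reductase, was 51.1 to 76.6 CPM (median 54.7) in controls and 34.9 to 48.8 CPM (median 41.1) with STEM (-0.52, SE 0.098, adjusted p = 0.000942), the highest control being library 6.

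The late steps were mixed. Sc5d, a desaturase of the sterol ring, fell from 91.6 to 102 CPM (median 97.0) in controls to 66.7 to 77.4 CPM (median 72.3) with STEM (log2 fold change -0.43, SE 0.047, adjusted p = 8.59e-06). Ebp, the isomerase that moves the ring double bond, was 75.2 to 86.2 CPM in control libraries 1 to 5, 132 CPM in library 6 and 74.9 to 88.6 CPM with STEM (-0.10, adjusted p = 0.533, and 0.05, adjusted p = 0.452, without library 6). Dhcr7, a reductase of the last steps, was 37.9 to 47.8 CPM in controls and 35.9 to 48.4 CPM with STEM (-0.03, SE 0.08, adjusted p = 0.801). Tm7sf2, a sterol reductase, was 25.6 to 32.2 CPM in controls and 23.4 to 29.4 CPM with STEM (-0.16, SE 0.072, adjusted p = 0.089). Without control library 6, its lowest control, Tm7sf2 passed the test (-0.20, adjusted p = 0.0172). Tm7sf2 shares 532 bp (12.1%) of its exons with Vps51 on the same strand, which limits how far its counts can be assigned.

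Among the 6 regulators and carriers, 3 fell, 2 rose and Srebf2 did not pass the test. The rises were in Srebf1 and Scap, the only members called higher. Srebf1, the gene of SREBP-1, lies at chr11:60199089-60222581 on the minus strand. Srebf1 was 78.1 to 107 CPM (median 85.5) in controls and 124 to 141 CPM (median 130.5) with STEM, without overlap. The means were 87.7 ± 9.98 and 131 ± 5.50 CPM (SD, n = 6), a rise of 1.49-fold (log2 fold change 0.58, SE 0.065, adjusted p = 1.13e-05). Scap, the SREBP escort, was 21.9 to 28.7 CPM (median 24.6) in controls and 30.1 to 40 CPM (median 34.7) with STEM (0.49, SE 0.079, adjusted p = 0.000226).

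Srebf2, the gene of SREBP-2, had the same mean in both groups within its spread. It was 125 to 166 CPM (median 138) in controls and 124 to 161 CPM (median 138) with STEM (log2 fold change -0.01, SE 0.077, adjusted p = 0.959), and the sign depended on which library or scaling was used. Per length of exon, the ratio of Srebf1 to Srebf2 was 0.72 to 0.864 (median 0.80) in controls and 1.09 to 1.34 (median 1.17) with STEM. Thus Srebf2 was the more abundant of the pair in every control library and Srebf1 in every STEM library, on this scale.

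Insig1, which retains the SREBP escort in the endoplasmic reticulum and is itself a textbook SREBP target, moved with the enzymes. Its gene lies at chr5:28071363-28078662 on the plus strand. Insig1 was 167 to 215 CPM (median 194) in controls and 97.0 to 118 CPM (median 114) with STEM, a 1.74-fold fall without overlap (log2 fold change -0.80, SE 0.066, adjusted p = 5.47e-07). Insig2, its paralog, was 99.1 to 112 CPM in control libraries 1 to 5, 57.2 CPM in control library 6 and 65.4 to 82.0 CPM with STEM. Insig2 passed the test narrowly with all libraries (-0.38, SE 0.13, adjusted p = 0.0396) and by far more without library 6 (-0.49, adjusted p = 2.12e-06). Its call was lost when any one of control libraries 1 to 5 or STEM libraries 9 to 12 was left out. Stard4, a soluble carrier that moves cholesterol between membranes, was 40.4 to 54.1 CPM (median 51.3) in controls and 30.7 to 36.5 CPM (median 34.6) with STEM (-0.53, SE 0.074, adjusted p = 6.89e-05).

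The fatty acid arm divided into genes that fell and genes with little difference. Of the 4 genes that supply acetyl-CoA and build the chain, Acly and Acss2 fell while Acaca and Fasn did not pass the test. Acly, which splits citrate to give cytosolic acetyl-CoA, was 164 to 243 CPM (median 183) in controls and 128 to 144 CPM (median 135) with STEM (log2 fold change -0.48, SE 0.081, adjusted p = 0.000349). Acss2, which makes acetyl-CoA from acetate, was 73.3 to 86.6 CPM in control libraries 1 to 5, 43.3 CPM in control library 6 and 40.8 to 48.8 CPM with STEM. Library 6 was the only control within the range of the STEM libraries for Acss2 (-0.63, SE 0.13, adjusted p = 0.0018, and -0.74, adjusted p = 2.91e-09, without it).

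Acaca, the carboxylase that makes malonyl-CoA, was 88.6 to 105 CPM in control libraries 1 to 5, 146 CPM in library 6 and 89.4 to 113 CPM with STEM (log2 fold change -0.06, SE 0.11, adjusted p = 0.723). Fasn, the fatty acid synthase, lies at chr11:120805846-120824547 on the minus strand. It was 149.5 to 181 CPM in control libraries 1 to 5, 268 CPM in library 6 and 146 to 216 CPM with STEM (-0.07, SE 0.14, adjusted p = 0.74). For both genes the STEM libraries overlapped the first 5 controls, and without control library 6 the log2 fold change was 0.07 for each (adjusted p = 0.384 for Acaca and 0.634 for Fasn).

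**Figure D3:**
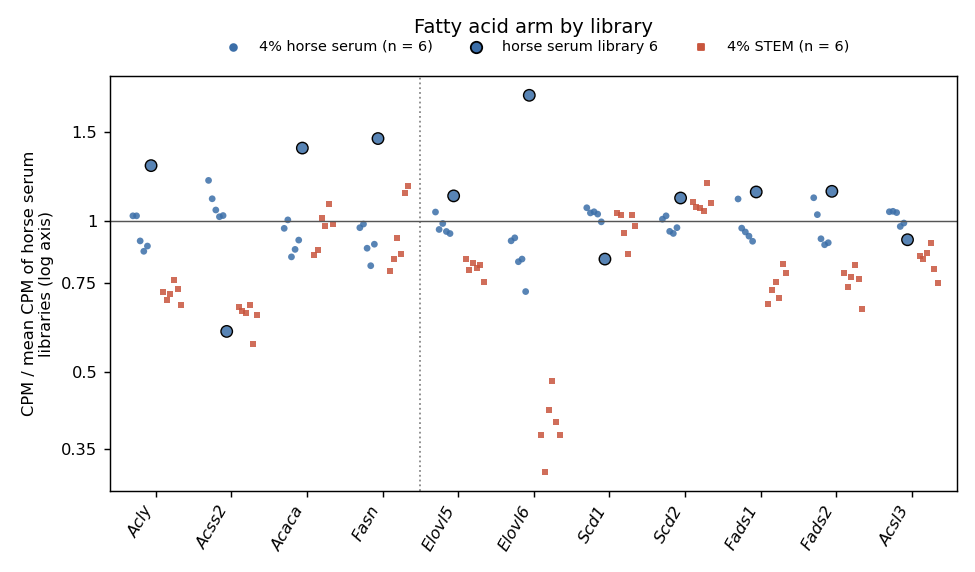
Level of each of the 11 fatty acid arm genes in each of the 12 libraries, as CPM divided by the gene's mean CPM in the controls (log axis), with circles for controls, squares for STEM and control library 6 outlined. The STEM points of Elovl6 lie below all control points, whereas those of Acaca, Fasn, Scd1 and Scd2 overlap the controls.

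Of the 7 genes that lengthen, desaturate or activate fatty acids, 5 fell and the stearoyl-CoA desaturases Scd1 and Scd2 did not pass the test. Elovl6, the elongase that makes stearate from palmitate, showed the largest fall of all members. Its gene lies at chr3:129532355-129638495 on the plus strand. Elovl6 was 28.6 to 36.6 CPM in control libraries 1 to 5, 70.4 CPM in control library 6 and 12.5 to 19.0 CPM with STEM. The groups were separate with or without library 6, and the log2 fold change was -1.35 (SE 0.20, adjusted p = 0.000268, 2.56-fold) with it and -1.11 (adjusted p = 1.63e-08) without it. Elovl5, the elongase of polyunsaturated chains, was 106 to 126 CPM in controls and 85 to 94.2 CPM with STEM (-0.31, SE 0.049, adjusted p = 0.000193). The ratio of Elovl6 to Elovl5, per length of exon, was 0.148 to 0.305 in controls and 0.0762 to 0.115 with STEM.

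The desaturases of polyunsaturated chains fell by similar amounts. Fads1 was 75.6 to 94.8 CPM (median 79.6) in controls and 56.6 to 68.2 CPM (median 61.6) with STEM (log2 fold change -0.43, SE 0.066, adjusted p = 0.000174). Fads2 was 108 to 138 CPM (median 117) in controls and 80.3 to 98.6 CPM (median 92.7) with STEM (-0.40, SE 0.07, adjusted p = 0.000439). Acsl3, which activates long-chain fatty acids on lipid droplets and the endoplasmic reticulum, was 452 to 515 CPM (median 500) in controls and 371 to 446 CPM (median 416) with STEM (-0.26, SE 0.052, adjusted p = 0.00125). None of these 3 genes overlapped between the groups, and the 2 Fads genes lie 81141 bp apart on chromosome 19. Acsl3 shares 244 bp (5.6%) of its exons with Utp14b on the same strand.

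Scd1 and Scd2 make oleate and palmitoleate and were among the most abundant members. Scd2 was 1449 to 1705 CPM (median 1518) in controls and 1607 to 1829.8 CPM (median 1649) with STEM (log2 fold change 0.12, SE 0.052, adjusted p = 0.083). Without control library 6, its highest control, Scd2 passed the test as higher with STEM (0.15, adjusted p = 0.0068). Scd1 was 606 to 767 CPM (median 747) in controls and 621 to 749 CPM (median 723) with STEM (-0.03, SE 0.064, adjusted p = 0.719). Per length, the ratio of Scd1 to Scd2 was 0.397 to 0.575 in controls and 0.432 to 0.507 with STEM, so the ranges overlapped. Few reads were given to the paralogs, 61 to Scd3 and 143 to Scd4 over all libraries.

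Levels per kilobase of exon placed Scd2 first in the controls (281 CPM per kb), followed by Scd1 (148), Hmgcs1 (131), Acsl3 (113) and Cyp51 (81.5), with Scap lowest (3.35). Where the longest coding transcript was used as the length instead, the order of the leading genes became Scd2 (282), Hmgcs1 (174), Scd1 (149.6), Fdps (135) and Msmo1 (126), with Scap again lowest (5.89). The order of neighbours after Scd2 thus depended on the gene length chosen, while the first and last places did not under these 2 lengths.

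Added over all 24 genes, the sterol arm was 2987 to 3502 CPM (median 3231) in controls and 2273 to 2444 CPM (median 2356) with STEM, so every STEM library was below every control. The fatty acid arm was 3478 to 3893 CPM in controls and 3392 to 3735 CPM with STEM, ranges that overlap, and Scd1 and Scd2 make up most of the sum. Without those desaturases, the sum of the other 9 genes was 1284 to 1582 CPM in controls and 1090 to 1165 CPM with STEM. Control library 6 was the highest control for 16 of the 24 sterol arm genes and 8 of the 11 fatty acid genes, and the lowest for 4 and 3. Without control library 6 all 20 sterol and 7 fatty acid calls were kept, with Srebf1 and Scap again higher with STEM and the others lower. In control libraries 1 to 5 the sterol arm summed to 2987 to 3373 CPM, above every STEM library. The whole fatty acid arm summed to 3478 to 3764 CPM in these controls, a range that overlaps that with STEM.

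**Figure D4:**
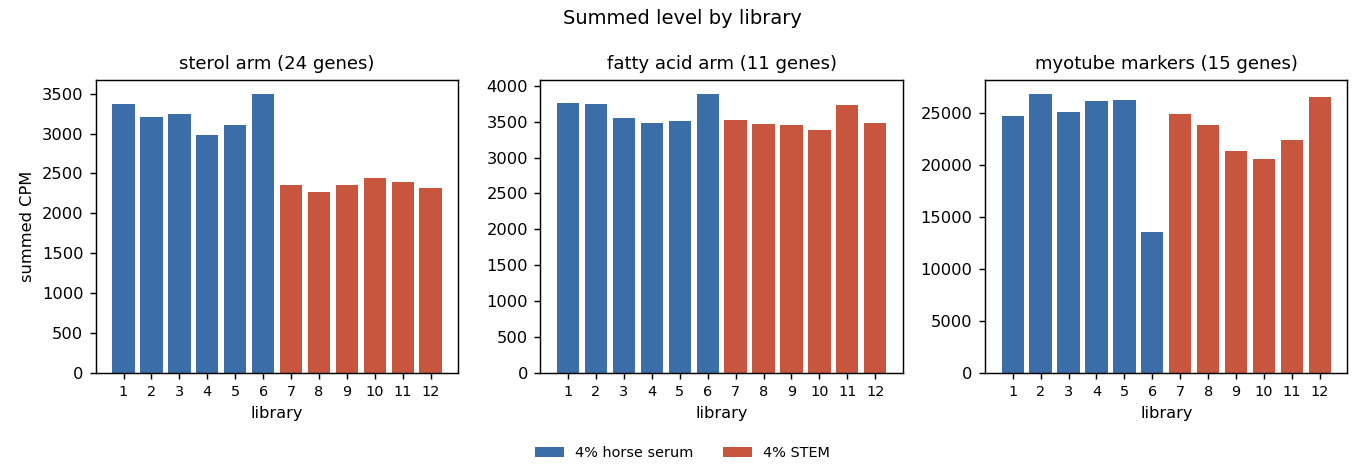
Summed level (CPM, bars from 0) in each library of the sterol arm, the fatty acid arm and the 15 myotube markers, controls 1 to 6 and STEM 7 to 12. The sterol arm sums of the 6 STEM libraries (2273 to 2444) lie below all controls (2987 to 3502), and control library 6 stands apart in the myotube markers (13521).

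Genes of neighbouring pathways were read from the same fit. Of 5 genes next to the sterol route 3 fell and none rose. Aacs, which makes acetoacetyl-CoA from ketone bodies, was 75.3 ± 13.8 CPM in controls and 48.4 ± 2.20 CPM with STEM (log2 fold change -0.64, adjusted p = 0.000133). Pcyt2, of phosphatidylethanolamine synthesis, had a log2 fold change of -0.43 (adjusted p = 0.000161), and Lbr, a lamin receptor that is also a sterol reductase, of -0.34 (adjusted p = 0.000214). Mmab, named here after its values were seen because its start lies 208 bp from that of Mvk, was 27.9 ± 1.82 and 30.6 ± 2.03 CPM (0.14, adjusted p = 0.0951), so it did not pass the test where its neighbour fell.

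The proteins that cleave SREBPs or sense sterol gave 1 called gene of 8, Erlin2 (log2 fold change -0.26, adjusted p = 0.00172), and without control library 6 it was 4, 2 in each direction. The isoprenoid branch, which uses farnesyl diphosphate for dolichol, ubiquinone and protein prenylation, gave 6 higher and none lower of 16 (median 0.13), and 7 higher and 1 lower without control library 6. The called genes of this branch included Dolk, dolichol kinase (0.30, adjusted p = 0.000991), Pdss1, of the ubiquinone side chain (0.47, adjusted p = 0.00441), and Dhdds, of dolichol synthesis (0.24, adjusted p = 0.00754). With all 12 libraries, the 6 called genes of this branch were all higher with STEM, whereas the 7 enzymes that make its precursor were lower. The share of the branch that was called, 37.5%, was near the 36.4% of all genes. The share called higher was 37.5% of the branch and 18.9% of all genes, and 2 of its 16 genes had no overlap between the groups.

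Of 10 tested genes of sterol efflux, oxysterols and esterification, 2 rose and 3 fell, and without control library 6 it was 4 higher and 3 lower. Pltp, the phospholipid transfer protein, rose (log2 fold change 0.46, adjusted p = 0.000136), as did Lpcat3, a phospholipid acyltransferase (0.27, adjusted p = 0.000517). Soat1, which esterifies cholesterol, fell (-0.23, adjusted p = 0.000434), as did Nr1h2, the gene of the oxysterol receptor LXR-beta (-0.31, adjusted p = 0.0021). Of 14 genes of lipoprotein uptake and sterol transport, 2 rose and 5 fell, led by Gramd1c (-0.78, adjusted p = 0.000355), Scarb1 (-0.45, adjusted p = 0.0011), Npc2 (-0.26, adjusted p = 0.00128) and Gramd1a (-0.31, adjusted p = 0.0015). Scarb1 takes up lipid from lipoproteins, Npc2 binds cholesterol in lysosomes, and the Gramd1 proteins carry it to the endoplasmic reticulum. Of the Gramd1 genes, Gramd1b, named here after its values were seen, rose (0.55, adjusted p = 0.00335).

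Other genes of fatty acid synthesis and elongation were mixed, 6 higher and 2 lower of 20 tested, and 9 higher and 5 lower without control library 6. Slc25a1, the mitochondrial citrate carrier that feeds Acly, fell from 62.4 ± 6.99 to 42.5 ± 2.7 CPM (log2 fold change -0.55, adjusted p = 4.04e-05), and Tecr, of the elongation cycle, fell from 416 ± 25.7 to 352 ± 10.7 CPM (-0.24, adjusted p = 0.00114). Me1, which supplies NADPH, rose from 33.6 ± 3.23 to 43.9 ± 4.44 CPM (0.38, adjusted p = 0.00128), and Mecr, of mitochondrial fatty acid synthesis, also rose (0.32, adjusted p = 0.00167). Of 21 tested genes of glycerolipids and lipid droplets, 7 rose and 5 fell (57.1% called, against 36.4% of all genes). Without control library 6 it was 9 higher and 6 lower (71.4% against 50.8%). Mgll, monoacylglycerol lipase, rose from 29.7 ± 2.59 to 52.2 ± 2.48 CPM (0.81, adjusted p = 2.91e-07). Lpin3, a phosphatidate phosphatase (0.60, adjusted p = 9.69e-07), Plin2, a lipid droplet coat protein (0.28, adjusted p = 0.000307), and Fitm2, of droplet formation (0.28, adjusted p = 0.000555), rose as well.

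**Figure D5:**
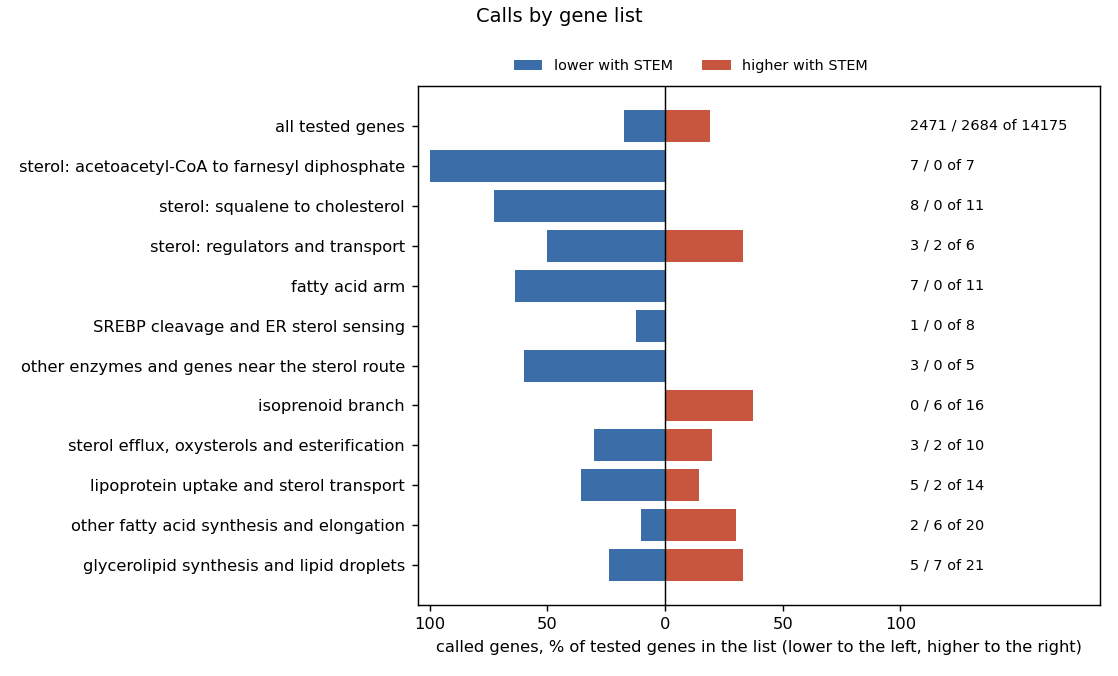
Share of tested genes called lower (bars to the left) and higher (to the right) with STEM, in percent, in each list of members and neighbouring pathways, with the counts at the right, beside the share over all tested genes (17.4% lower and 18.9% higher). The enzymes up to farnesyl diphosphate are all on the lower side, and the isoprenoid branch has called genes on the higher side only.

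Most of the falls were modest in size. In a test against a change of 1.5-fold, which 1.89% of all genes passed (1.07% lower and 0.825% higher), 5 genes of the sterol arm (Acat2, Hmgcs1, Lss, Msmo1 and Insig1) and 1 gene of the fatty acid arm (Elovl6) were called, all lower with STEM.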

How the data were processed

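Bulk RNA-seq counts of 12 C2C12 libraries (6 control, 6 STEM) were used. The deposited values are raw read counts per Ensembl gene, and the submitters' processing notes name STAR 2.7.3a, featureCounts 1.6.3, DESeq2 1.26.0 and the build GRCm38. The library kit marks strand, but the strand setting of the counting and the annotation release are not given in the sources used here. Symbols came from GENCODE M21, which held 55227 of the 55487 listed genes, and the rest held 0.00268% of counts. Upstream sequences came from RefSeq.

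Counts were fitted with edgeR 4.0.16 in R 4.3.3 (TMM, filterByExpr, robust quasi-likelihood test, Benjamini-Hochberg over 14175 genes, called at 0.05). Log2 fold changes used edgeR's prior count, and library levels were CPM. Alternatives were DESeq2 1.42.0, limma-voom 3.58.1, other scalings and filters, an adjusted p of 0.01, a test against 1.5-fold (glmTreat) and leaving out each library. On simulated counts for 14175 genes with 200 changed, edgeR recovered 100 of 100 genes changed 4-fold and 96 of 100 changed 2-fold, and 6.67% of its calls were false (13.3% for DESeq2).

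Every member is named. Of each neighbouring list at most 4 called genes with the lowest p-values are named, except 1 gene not reported here, and of each marker list the genes with the highest and lowest level. The members and lists were chosen with earlier results of these data known. Libraries of a group differed beyond sampling noise (chi-square per degree of freedom 3.29 to 68.5), so none was treated as a duplicate.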

Additional observations from a re-analysis of the deposited data

Results flagged for a closer look

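Within each group of 6 libraries, the gap of the highest or lowest library to its neighbour was compared with the range of the group. Of 70 groups (35 members in the controls and with STEM), 14 held such an outlying library, and chance gives about 1 in 20. Control library 6 was the outlying library in 12 of the 14. It was high for Idi1 (74.3 CPM), Hsd17b7 (76.6), Ebp (132), Srebf2 (166), Srebf1 (107), Acly (243), Acaca (146), Fasn (268) and Elovl6 (70.4). It was low for Insig2 (57.2), Acss2 (43.3) and Scd1 (606). STEM library 11 was low for Acss2 (40.8 CPM) and high for Scd2 (1829.8). The same control library had the lowest level of all 15 myotube markers among the controls, and the part of its different state in these values was not tested.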

How the results depend on the processing

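No paired analysis was possible because the control libraries are numbered 1 to 6 and the STEM libraries 7 to 12, so the groups share no replicate number. Over all genes, 5155 calls became 3266 at an adjusted p of 0.01 (1676 higher and 1590 lower) and 268 in the test against 1.5-fold (117 higher and 151 lower). In that test the sterol arm kept 5 calls (0 higher, 5 lower) and the fatty acid arm 1 (0 higher, 1 lower). Leaving out each library in turn gave the fatty acid arm 0 to 1 genes called higher, the 1 being Scd2 without control library 6. Log2 fold changes reversed in members that were not called, with single libraries left out: Ebp ranged from -0.15 to 0.05 (positive without control library 6), Dhcr7 from -0.07 to 0.02 (positive without STEM library 8), Acaca from -0.10 to 0.07 and Fasn from -0.14 to 0.07 (positive without control library 6), Scd1 from -0.08 to 0.00 (highest without STEM library 10), and Srebf2 from -0.05 to 0.05 (positive without control library 6 or STEM library 7, 8 or 10). Scaled by total counts only, Srebf2 was at 0.01. Insig2 lost its call with no filter on low counts, with limma-voom, at an adjusted p of 0.01 and without single libraries, and Tm7sf2 gained one without control library 6 or STEM library 7. DESeq2 called the same 20 and 7 members. Over the 12 libraries left out, 399 of the member results kept direction and call, 9 lost the call, 3 gained one and 9 reversed; the cause was not tested. Counts of at least 212 per library limit little here, and the spread between libraries sets the precision.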
